A study of Mus musculus with 8 samples.

Results

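The 9 genes *Nodal*, *Gdf3*, *Tdgf1*, *Tdgf1-ps1*, *Lefty1*, *Lefty2*, *Acvr1b*, *Acvr2b* and *Skil* of the Nodal pathway were followed among the 50902 genes of an RNA-seq experiment in mouse embryonic stem cells (ESCs). They were taken by gene symbol, with a single entry on a main chromosome for each, and all 9 were found and lay above the expression filter that left 9002 genes. The choice was made with the differences between the 2 conditions of these same libraries known, so their values are given as a description and without tests. The experiment compared cells of the ESC line E14 that carried an siRNA-resistant *Baz2a* transgene with a Flag and an HA tag, inserted with the piggyBac transposase. In ESC + F/H-BAZ2Ar WT (BAZ2Ar WT below) the transgene coded for the full protein, and in ESC + F/H-BAZ2Ar ΔTAM (BAZ2Ar ΔTAM below) for a protein without its TAM domain, a stretch related to methyl-CpG binding domains. Both lines were cultured with LIF and 2i (inhibitors of the kinases MEK and GSK3), were transfected with siRNA-Baz2a against the endogenous transcript and were harvested 3 days later. There were 4 libraries of each. Both lines came from single-cell clones picked by western blot, so a difference between the transgenes and a difference between 2 clones cannot be told apart. The labels do not say whether the replicates were separate cultures, so the p-values below measure only the spread between these libraries.

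NODAL is a ligand of the TGFβ family that signals through type I and type II activin receptors together with CRIPTO, the membrane-anchored co-receptor encoded by *Tdgf1*. The activated receptors phosphorylate SMAD2 and SMAD3, which enter the nucleus with SMAD4 and bind DNA with partners such as FOXH1. The LEFTY proteins, secreted and themselves induced by the pathway, block NODAL and CRIPTO and so close a negative feedback loop. In the early embryo this pathway maintains the epiblast and patterns its anterior and posterior sides, and in cultured ESCs it is active at a low level through ligands that the cells make themselves.

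Between 7.28 M and 7.71 M reads per BAZ2Ar WT library and between 6.59 M and 8.70 M per BAZ2Ar ΔTAM library lay on genes. *Baz2a*, counted from the transgene and the remaining endogenous transcript together, ran from 9.95 to 11.2 RPKM in BAZ2Ar WT and from 17.0 to 18.9 RPKM in BAZ2Ar ΔTAM. This difference in *Baz2a* level and the lack of the TAM domain cannot be told apart in the comparisons below. All 7 ESC markers (among them *Pou5f1*, *Nanog* and *Sox2*) had reads in every library, with a summed exon level (reads per kilobase of exon, scaled to 1 M reads on genes) of 1504 to 1531 against 1355 to 1433. Of these, *Sox2* (log2 fold change -0.42), *Klf4* (-0.39) and *Esrrb* (-0.20) were lower in BAZ2Ar ΔTAM, with limma adjusted p of 6.8e-05, 4.5e-05 and 0.00176, and the other 4 did not pass the threshold. The summed level of 6 markers of the primed epiblast was 26.4 to 29.9 in BAZ2Ar WT and 33.7 to 37.3 in BAZ2Ar ΔTAM, with *Fgf5* at 0 reads in all libraries and *Pou3f1* and *Otx2* at 15 or fewer. Of its more abundant genes, *Dnmt3b* was higher (log2 fold change 0.54, limma adjusted p = 6.1e-05) and *Zic2* had a negative value (-0.13, adjusted p = 0.183 from limma). That of 7 primitive endoderm markers was 1.37 to 1.56 against 1.88 to 2.34, with *Foxa2* at 0 or 1 read. That of 6 trophectoderm markers was 22.3 to 23.1 against 23.3 to 28.5, with *Elf5* at 0 or 1 read. Its genes past the threshold went opposite ways, *Tfap2c* higher (0.19, limma adjusted p = 0.0109) and *Eomes* lower (-0.26, limma adjusted p = 0.0359). The call of *Eomes* was lost with the replicate number as a block (limma adjusted p = 0.0942). For 5 markers of mesoderm and endoderm the ranges overlapped (17.4 to 19.7 against 13.1 to 18.2), as they did for 5 fibroblast markers (26.2 to 33.1 against 26.6 to 29.0), of which *Col3a1* was at 0 in all libraries. The part of these marker differences in the results below was not tested. In bulk RNA, fewer cells that transcribe a gene and less RNA of it per cell cannot be told apart.

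Between the conditions, the co-receptor gene *Tdgf1* had a mean RPKM 0.479 times that of BAZ2Ar WT in BAZ2Ar ΔTAM, and that of *Lefty1* was 2.05 times as high. *Nodal* stood at 0.740 times, *Lefty2* at 0.843 times, *Acvr1b* at 0.850 times and *Skil* at 1.33 times, while the ranges of *Gdf3* and *Acvr2b* overlapped. Taking direction alone, 2 of the 9 lay higher and 5 lower with no overlap between the libraries of the conditions. Over all 9002 genes, 37.2% did not overlap, 20.5% being higher and 16.7% lower, and since the members were picked on this contrast nothing is read from their number.

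**Figure D1:**
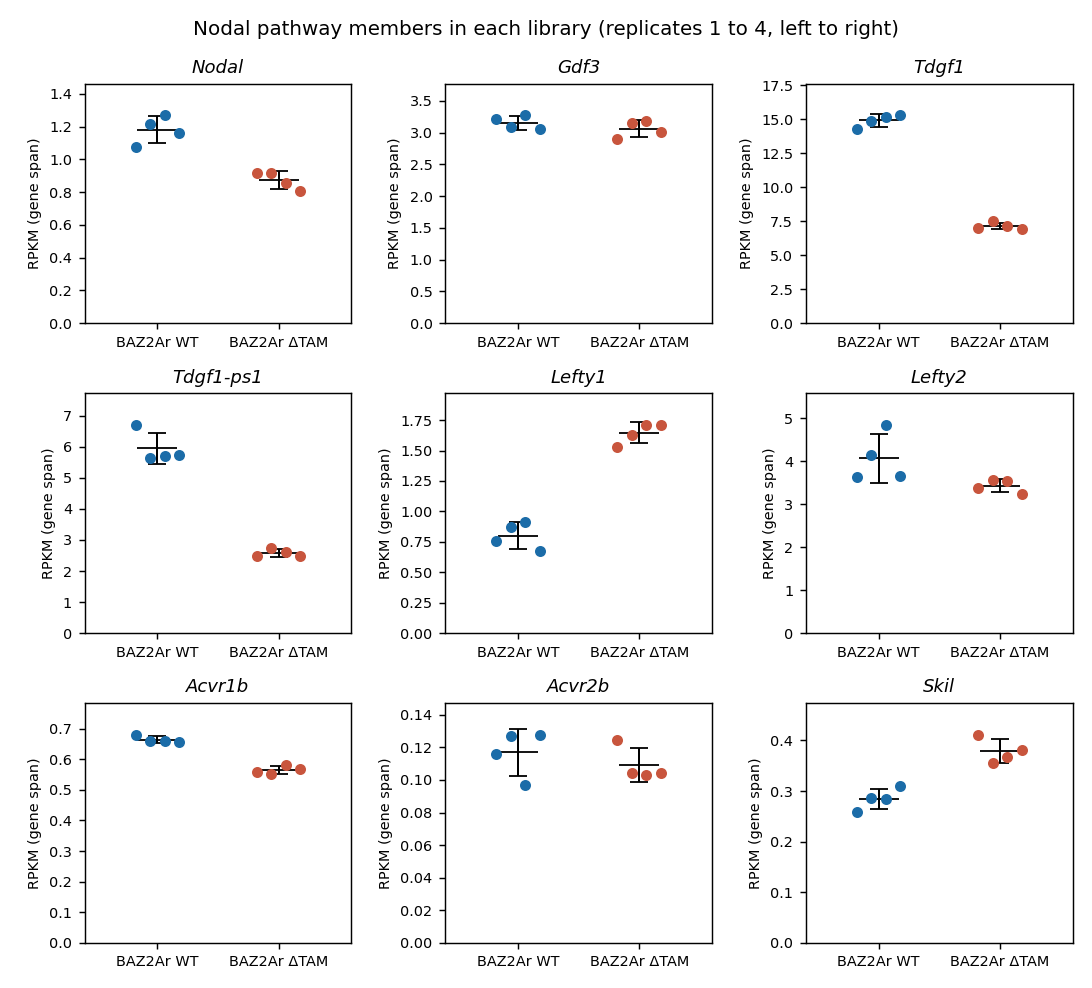
Deposited RPKM per kilobase of gene span (vertical axes, each starting at 0) of the 9 genes in the 4 BAZ2Ar WT (blue) and 4 BAZ2Ar ΔTAM (red) libraries, with replicates 1 to 4 from left to right, and the mean and SD as black bars. The red points lie below all blue points for Tdgf1 and Tdgf1-ps1, above all of them for Lefty1 and Skil, while the ranges overlap for Gdf3 and Acvr2b.

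The ligand gene *Nodal* lies on the forward strand of mm10 at chr10:61417972-61425338, with 3 exons. Its RPKM were 1.08, 1.21, 1.27 and 1.16 in BAZ2Ar WT replicates 1 to 4 (the order of all lists of values below) and 0.919, 0.914, 0.853 and 0.804 in BAZ2Ar ΔTAM replicates 1 to 4. All BAZ2Ar ΔTAM libraries were below the lowest BAZ2Ar WT library, which was replicate 1. The condition means were 1.18 ± 0.0828 and 0.873 ± 0.0546 RPKM (SD, n = 4 each). On the scale of log2(RPKM + 0.1), used for all fold changes here unless reads are named, this is a log2 fold change (log2FC) of -0.40 with a standard error (SE) of 0.058. The pseudocount of 0.1 RPKM shrinks the change of a gene with low RPKM, and on the reads themselves the log2FC was -0.44. These values rest on 394 to 460 reads per BAZ2Ar WT library and 295 to 344 per BAZ2Ar ΔTAM library (these are read counts without molecular identifiers). Leaving out each library in turn moved the fold change between -0.44 and -0.36.

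*Gdf3* encodes another TGFβ family ligand, which can signal through the same receptors and co-receptor. It lies on the reverse strand at chr6:122605403-122610087, also with 3 exons, within 100 kb of *Nanog* and *Dppa3*. The libraries gave 3.21, 3.08, 3.28 and 3.05 RPKM in BAZ2Ar WT and 2.90, 3.15, 3.19 and 3.01 RPKM in BAZ2Ar ΔTAM. The ranges of the conditions overlapped, and the difference of the means (3.15 ± 0.109 and 3.06 ± 0.133 RPKM, SD, n = 4 each) was smaller than the spread between replicates. The log2FC was -0.041 with SE 0.039 and lay between -0.060 and -0.016 with each library left out. Per exon length, *Gdf3* transcripts were 1.48 ± 0.113 times as abundant as those of *Nodal* in BAZ2Ar WT and 1.94 ± 0.155 times in BAZ2Ar ΔTAM.

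*Tdgf1*, the gene of the co-receptor CRIPTO, had the highest level of the 9 genes in both conditions. It lies on the reverse strand at chr9:110939603-110946158, and its annotated transcripts together cover 7 exon blocks. It was measured at 14.3, 14.9, 15.1 and 15.3 RPKM in BAZ2Ar WT and at 7.03, 7.48, 7.12 and 6.91 RPKM in BAZ2Ar ΔTAM. The replicates of a condition lay close together and the conditions far apart, at 14.9 ± 0.450 and 7.13 ± 0.247 RPKM on average (SD, n = 4 each). The log2FC was -1.05 with SE 0.033, and between -1.08 and -1.04 without any single library. From 4654 to 5179 reads per BAZ2Ar WT library and from 2082 to 2630 per BAZ2Ar ΔTAM library supported it, more than for any other of the 9 genes.

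*Tdgf1-ps1* is a processed pseudogene of *Tdgf1*, a copy of its spliced transcript without introns, at chr16:3730510-3731025 on the forward strand. Its transcript in GENCODE vM21 aligned with the *Tdgf1* transcript over 512 bases, which hold the *Tdgf1* coding sequence except its last bases, and 506 of them (98.8%) were the same. The 6 substitutions, numbered from the first base of the *Tdgf1* coding sequence with the *Tdgf1* base first, were C50T, T150C, T281C, G436A, C443T and C464T. The longest run without a difference spanned 154 bases. A stretch of 100 bases with as many differences as any (3), coding positions 389 to 488 of *Tdgf1* and chr16:3730898-3730997 of GRCm38 for the pseudogene, shows how little separates the 2 genes over the length of a read. Capitals mark the bases that differ.
Tdgf1: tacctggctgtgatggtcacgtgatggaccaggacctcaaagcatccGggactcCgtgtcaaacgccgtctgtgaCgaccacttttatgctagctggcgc
Tdgf1-ps1: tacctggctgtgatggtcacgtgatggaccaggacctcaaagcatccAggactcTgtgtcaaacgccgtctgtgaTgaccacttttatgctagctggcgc

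The pseudogene was measured at 6.72, 5.66, 5.70 and 5.76 RPKM in BAZ2Ar WT and at 2.49, 2.75, 2.62 and 2.47 RPKM in BAZ2Ar ΔTAM. Replicate 1 of BAZ2Ar WT stood above the other 3, and no library of one condition reached into the range of the other. On average this was 5.96 ± 0.508 and 2.58 ± 0.128 RPKM (SD, n = 4 each), a log2FC of -1.17 (SE 0.062) that was -1.11 without that library. Its 515-base span gives it a high RPKM for few reads: 143 to 172 per BAZ2Ar WT library and 58 to 74 per BAZ2Ar ΔTAM library. For every 100 reads on *Tdgf1* there were 3.70, 2.99, 2.96 and 2.95 reads on *Tdgf1-ps1* in BAZ2Ar WT and 2.79, 2.89, 2.89 and 2.81 in BAZ2Ar ΔTAM. Apart from the first, these ratios differed little between libraries, though all in BAZ2Ar ΔTAM were below all in BAZ2Ar WT. The reads of the pseudogene thus broadly followed those of *Tdgf1* in number. Of the 414 windows of 100 bases in the pseudogene transcript, 86 (20.8%) occur unaltered in the *Tdgf1* transcript, and 364 of the 413 aligned windows differ from it at no more than 2 bases. How the study's counting treated reads that fit both genes is not given in the sources used here, so the value of *Tdgf1-ps1* is uncertain, and transcription of the pseudogene itself was not tested.

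**Figure D2:**
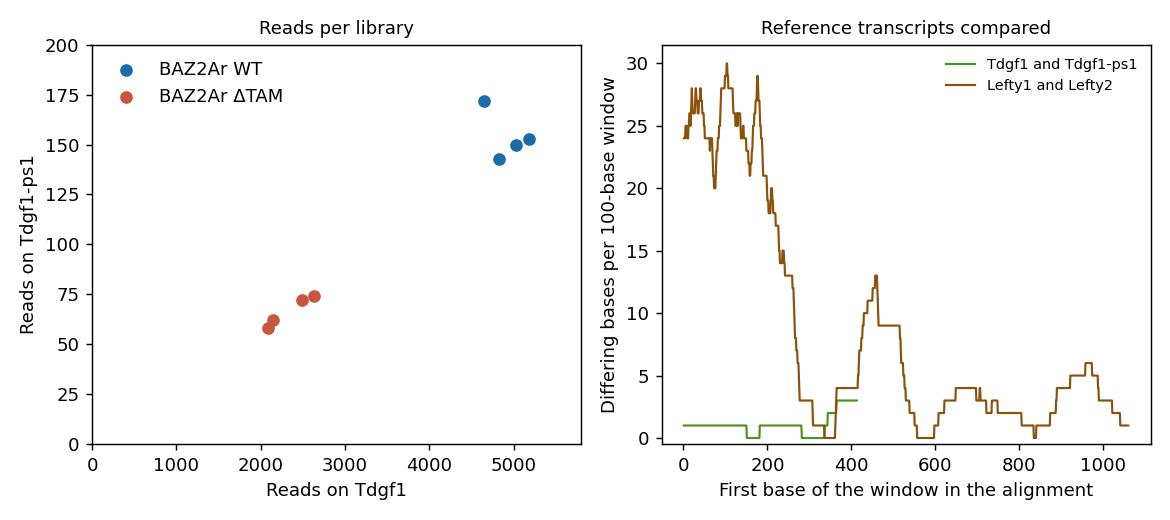
Left, reads on Tdgf1-ps1 against reads on Tdgf1 in each of the 8 libraries, both axes starting at 0, with BAZ2Ar WT in blue and BAZ2Ar ΔTAM in red, which form separate clusters. Right, the number of differing bases in each 100-base window along the aligned reference transcripts, at most 3 for Tdgf1 and Tdgf1-ps1 (green) and far more at the start of Lefty1 and Lefty2 (brown) than along the rest of the alignment.

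The antagonist genes *Lefty1* and *Lefty2* lie 35919 bases apart on the forward strand of chromosome 1, *Lefty2* at chr1:180893108-180899103 and *Lefty1* at chr1:180935022-180938400, each with 4 exon blocks. *Lefty1* was measured at 0.756, 0.868, 0.912 and 0.671 RPKM in BAZ2Ar WT and at 1.53, 1.63, 1.71 and 1.71 RPKM in BAZ2Ar ΔTAM. The lowest BAZ2Ar ΔTAM library was thus well above the highest BAZ2Ar WT library, replicate 3. Means over the replicates were 0.802 ± 0.109 and 1.65 ± 0.0853 RPKM (SD, n = 4 each), a log2FC of 0.96 with SE 0.087, between 0.89 and 1.02 with each library left out. On the 117 to 151 reads per BAZ2Ar WT library and 234 to 336 per BAZ2Ar ΔTAM library the log2FC was 1.05.

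*Lefty2* went the other way by a smaller amount. Its libraries had 3.64, 4.13, 4.85 and 3.65 RPKM in BAZ2Ar WT and 3.37, 3.56, 3.53 and 3.24 RPKM in BAZ2Ar ΔTAM. The ranges did not overlap but nearly touched, and replicate 3 was again the highest of the BAZ2Ar WT libraries, as it was for *Lefty1* and *Nodal*. With means of 4.07 ± 0.569 and 3.43 ± 0.151 RPKM (SD, n = 4 each), the log2FC was -0.23 with SE 0.091. Without BAZ2Ar WT replicate 3 it was -0.15, and it was as low as -0.28 without BAZ2Ar WT replicate 1.

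Per kilobase of exon, *Lefty1* made up 14.8%, 14.9%, 13.6% and 13.3% of the sum of both genes in BAZ2Ar WT and 27.6%, 27.7%, 28.8% and 30.7% in BAZ2Ar ΔTAM. This share differed far more between the conditions (14.2 ± 0.819% and 28.7 ± 1.44%, SD, n = 4 each) than within them. The sum itself was 72.8 ± 9.88 and 73.6 ± 2.22 reads per kb of exon per M, and its range in BAZ2Ar ΔTAM (71.7 to 75.8) lay within that in BAZ2Ar WT (65.0 to 86.1). *Lefty2* was thus 6.07 ± 0.409 times as abundant as *Lefty1* in BAZ2Ar WT and 2.49 ± 0.171 times in BAZ2Ar ΔTAM. Set against the ligand, both antagonist genes together stood at 2.62 ± 0.210 times *Nodal* in BAZ2Ar WT and at 3.60 ± 0.239 times in BAZ2Ar ΔTAM, with no overlap between the libraries.

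**Figure D3:**
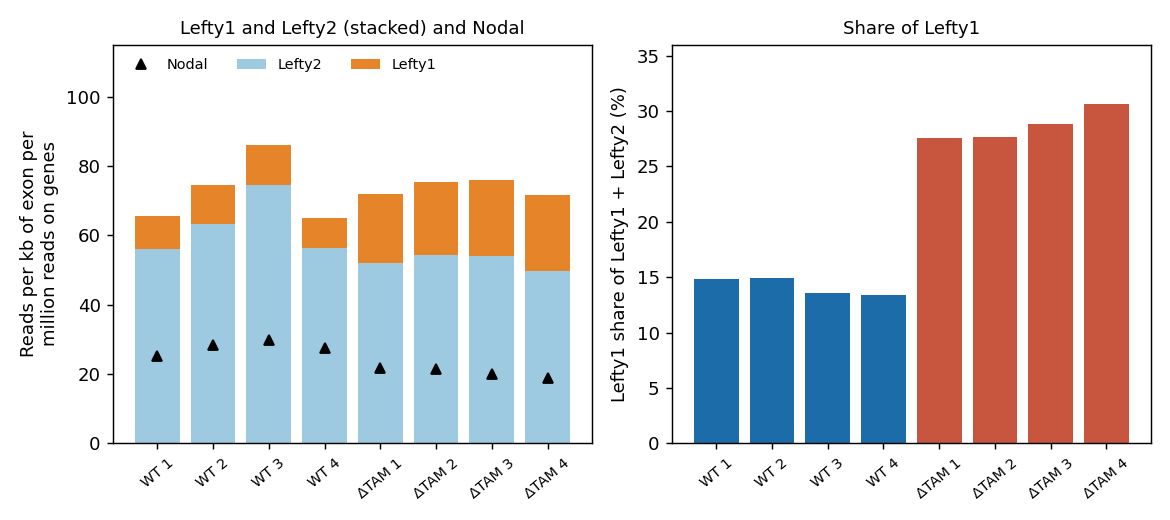
Left, levels of Lefty2 (light blue) and Lefty1 (orange) stacked, and of Nodal (black triangles), in reads per kb of exon per M for each of the 8 libraries. Right, the share of Lefty1 in the sum of both genes in percent, from 13.3% to 14.9% in BAZ2Ar WT (blue) and from 27.6% to 30.7% in BAZ2Ar ΔTAM (red), while the height of the stacks overlaps between the conditions.

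The *Lefty* genes are close relatives, and their reads could be confused where their transcripts match. Over 1087 aligned bases of coding sequence, 92.6% were the same, and the longest run without a difference in the whole transcripts was 140 bases. In all, 73 of the 2374 windows of 100 bases in the *Lefty2* transcript (3.07%) occur unaltered in the *Lefty1* transcript. Of the 1060 aligned windows, 330 differ at no more than 2 bases. The most different stretch of 90 coding bases lies near the start, at positions 35 to 124 of both coding sequences, and is shown, from the same reference transcripts, because it holds the most bases that tell reads of the genes apart. Capitals mark its 27 differing bases.
Lefty1: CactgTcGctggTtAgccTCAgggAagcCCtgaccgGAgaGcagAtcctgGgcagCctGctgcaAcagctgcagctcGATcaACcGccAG
Lefty2: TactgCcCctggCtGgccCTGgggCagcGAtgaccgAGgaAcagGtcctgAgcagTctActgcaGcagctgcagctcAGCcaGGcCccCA

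Of the receptor genes, *Acvr1b*, which encodes the type I receptor ALK4, lay lower by a small amount. It is on the forward strand at chr15:101174067-101213679 with 9 exon blocks. Replicates 1 to 4 had 0.680, 0.659, 0.659 and 0.655 RPKM in BAZ2Ar WT and 0.557, 0.551, 0.581 and 0.566 RPKM in BAZ2Ar ΔTAM. The replicates lay closer together than for most members, and the libraries of the conditions did not overlap. Averages were 0.663 ± 0.0116 and 0.564 ± 0.0129 RPKM (SD, n = 4 each), with a log2FC of -0.20 (SE 0.024) from 1271 to 1345 and 956 to 1303 reads per library.

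*Acvr2b* encodes a type II receptor that binds the ligand first and activates ALK4. It lies at chr9:119402118-119434995 on the forward strand and had the lowest RPKM of the 9 genes, just above the filter of 0.1. Replicates 1 to 4 had 0.116, 0.127, 0.0968 and 0.128 RPKM in BAZ2Ar WT and 0.124, 0.104, 0.103 and 0.104 RPKM in BAZ2Ar ΔTAM. The ranges overlapped, and in BAZ2Ar ΔTAM replicate 1 stood above the other 3. The log2FC was -0.053 with SE 0.063, and it ran from -0.099 without BAZ2Ar WT replicate 3 to -0.028 without BAZ2Ar WT replicate 4. From 150 to 217 reads per library were counted on it.

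*Skil* encodes SnoN, a nuclear repressor that binds SMAD proteins, and is itself a known transcriptional target of the pathway. The gene lies at chr3:31095058-31122577 on the forward strand. It was measured at 0.259, 0.286, 0.284 and 0.309 RPKM in BAZ2Ar WT and at 0.412, 0.356, 0.367 and 0.381 RPKM in BAZ2Ar ΔTAM. Every BAZ2Ar ΔTAM library was above every BAZ2Ar WT library. The condition means were 0.285 ± 0.0203 and 0.379 ± 0.0240 RPKM (SD, n = 4 each), the log2FC was 0.32 (SE 0.050), and on its 355 to 439 and 429 to 609 reads per library it was 0.41.

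The deposited RPKM are per kilobase of the whole gene with its introns, so levels of different genes were compared per kilobase of annotated exon. In BAZ2Ar WT the order by mean level, in reads per kb of exon per M, began with *Tdgf1* at 249.5 ± 7.90 and *Lefty2* at 62.5 ± 8.65 (SD, n = 4). *Gdf3* at 40.8 ± 1.36, *Tdgf1-ps1* at 40.1 ± 3.42 and *Acvr1b* at 39.8 ± 0.680 followed, and the ranges of neighbours among these 3 genes overlapped. *Nodal* at 27.8 ± 1.92 and *Lefty1* at 10.3 ± 1.38 came next and were separate from their neighbours, and at the end *Acvr2b* at 6.56 ± 0.816 overlapped with *Skil* at 5.41 ± 0.397. In BAZ2Ar ΔTAM, *Tdgf1* (119 ± 3.81), *Lefty2* (52.5 ± 2.17), *Gdf3* (39.5 ± 1.52) and *Acvr1b* (33.8 ± 0.738) were each separate from the next. *Lefty1* (21.1 ± 1.02) and *Nodal* (20.5 ± 1.32) then lay at overlapping levels, above *Tdgf1-ps1* (17.3 ± 0.795), and *Skil* (7.19 ± 0.492) and *Acvr2b* (6.10 ± 0.607) overlapped with each other. *Lefty1* thus stood clearly below *Nodal* in the first line and level with it in the second. The co-receptor transcript exceeded that of the ligand 8.47 to 9.44 times in the BAZ2Ar WT libraries and 5.44 to 6.11 times in those of BAZ2Ar ΔTAM.

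**Figure D4:**
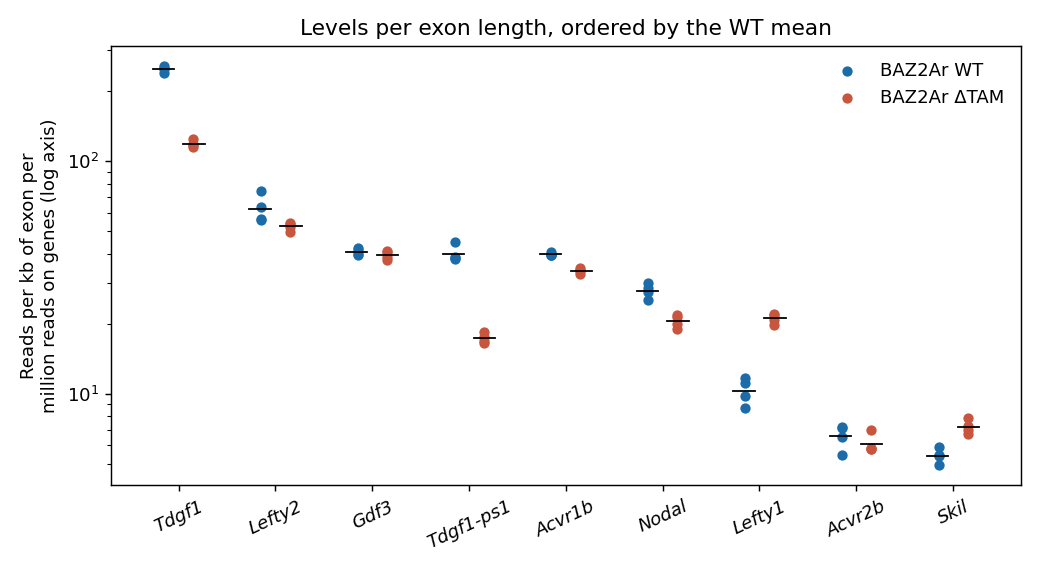
Level of each of the 9 genes in reads per kb of exon per M (log axis), ordered by the BAZ2Ar WT mean, with 1 point per library for BAZ2Ar WT (blue) and BAZ2Ar ΔTAM (red) and bars at the means. Tdgf1 is highest in both lines, and Lefty1 lies below Nodal in the first line (10.3 against 27.8) and at an overlapping level in the second (21.1 against 20.5).

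RefSeq promoters, 250 bases before to 50 bases after the start of the gene in GRCm38.p6, were at hand for *Nodal*, *Tdgf1*, *Acvr1b* and *Acvr2b*. They were searched on both strands for AATNCACA, the letters bound by FOXH1, for the SMAD letters GTCTAGAC and CAGACA, for CTTTGNT of TCF and LEF factors and for the octamer ATGCAAAT. The only match was a CTTTGNT in the promoter of *Nodal*, at position -242 from the start. In all, 18.6% of 32851 promoters of this length hold these letters, as 3.60% hold AATNCACA, 0.213% GTCTAGAC, 21.0% CAGACA and 1.74% the octamer. The promoters of the ligand and of its co-receptor, which were both lower in BAZ2Ar ΔTAM, are given from 5′ to 3′ on the strand of the gene, with the match in capitals. That of *Nodal* is chr10:61417722-61418021 on the forward strand and that of *Tdgf1* is chr9:110946109-110946408 on the reverse strand.
Nodal: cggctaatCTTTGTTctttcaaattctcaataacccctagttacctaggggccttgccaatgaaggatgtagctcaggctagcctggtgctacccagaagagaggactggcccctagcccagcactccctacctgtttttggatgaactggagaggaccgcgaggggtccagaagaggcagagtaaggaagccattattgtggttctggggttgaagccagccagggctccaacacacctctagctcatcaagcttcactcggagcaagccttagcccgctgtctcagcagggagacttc
Tdgf1: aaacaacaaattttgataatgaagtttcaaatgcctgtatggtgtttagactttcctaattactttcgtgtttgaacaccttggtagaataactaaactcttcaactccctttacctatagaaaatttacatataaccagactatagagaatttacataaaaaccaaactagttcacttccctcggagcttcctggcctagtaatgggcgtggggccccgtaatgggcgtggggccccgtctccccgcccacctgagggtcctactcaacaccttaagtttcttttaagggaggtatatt

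Another 54 genes of the pathway were then taken by their role, from the other ligands to embryonic targets. These lists too were made with earlier results of these data known, so their counts and p-values describe these libraries only. Of these, 21 passed the filter, and 4 were higher and 6 lower in BAZ2Ar ΔTAM with an adjusted p under 0.05 (limma, Benjamini-Hochberg over 9002 genes). Among all genes tested, 35.9% had such an adjusted p, 19.9% higher and 16.0% lower. The median log2FC of the 21 genes was -0.042, against 0.011 over all genes. With the replicate number as a block, 3 were higher and 3 lower, against 17.3% and 13.8% of all genes (31.1% together). The number lower was also 3 without replicate 1 of either line, and the number higher was 2 without BAZ2Ar WT replicate 3 or without replicate 1 or 3 of BAZ2Ar ΔTAM. Another 17 genes of the lists fell under the filter but averaged 10 reads or more. On the recovered reads of all 38 genes with that depth, 12 were higher and 8 lower by limma voom, against 21.8% and 21.8% of 12660 genes (43.7% together), with a median of -0.019 against -0.0027 over all genes.

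Of 11 other ligand genes, which code for activins, myostatin and relatives and for TGFβ proteins, 0 passed the filter. Their transcripts were scarce, and 7 had a mean under 10 reads. *Inhba*, *Gdf1* and *Mstn* had 0 reads in all libraries, which allows up to 3 reads in a library by counting error. Whether the exons of these ligand genes share bases with those of other genes was not checked. *Gdf11*, the most abundant per exon length over all libraries, stood at 0.750 ± 0.237 and 0.905 ± 0.180 reads per kb of exon per M (SD, n = 4 each), with overlapping ranges and an adjusted p of 0.314 from limma voom. *Inhbb*, named after its value was seen, had 0.825 ± 0.220 and 0.600 ± 0.158 (SD, n = 4 each), which is within the spread of *Gdf11* in BAZ2Ar WT, and its own ranges overlapped between the lines (limma voom adjusted p = 0.151). *Nodal* and *Gdf3* were thus measured at levels above those of all the other ligands of the list in these cells.

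*Furin*, a convertase that cleaves the NODAL precursor, rose from 0.444 ± 0.0171 to 0.573 ± 0.0250 RPKM (SD, n = 4 each; log2FC 0.31, SE 0.036, limma adjusted p = 6.5e-04), with no overlap between the lines. *Pcsk6*, which encodes the related convertase PACE4 and was the more abundant of the pair per exon length, had a log2FC of 0.020 (limma adjusted p = 0.724). That small value lay between 0.0066 and 0.030 with each library left out, and after quantile normalization its sign turned. Among receptors, *Tgfbr1* had a log2FC of 0.041 (limma adjusted p = 0.572), between 0.021 and 0.069 with each library left out. Of the receptor and co-receptor genes tested on reads alone, *Tgfbr2* (log2FC 0.83), *Tgfbr3* (0.37) and *Acvr2a* (0.30) were higher in BAZ2Ar ΔTAM with adjusted p of 7.7e-06, 0.00485 and 0.0302 from limma voom. These 3 genes are named after their values were seen.

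Among extracellular antagonists other than the *Lefty* genes, *Fst*, which encodes the activin-binding follistatin, fell from 0.507 ± 0.0357 to 0.355 ± 0.0400 RPKM (SD, n = 4 each; log2FC -0.42, SE 0.070, limma adjusted p = 0.00308). *Nomo1*, a member of a complex that antagonises Nodal signalling in fish, had a log2FC of -0.090 (limma adjusted p = 0.0438), which was 0.112 with the replicate block and above 0.05 in 7 of the 8 fits that left out a library. *Dand5*, named after its value was seen, had a log2FC of -0.72 on few reads (limma voom adjusted p = 0.0438). *Cer1* had 0 reads in all libraries.

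Of the SMAD genes, *Smad3* was higher by 0.45 on the log2 scale on its reads (SE 0.078, limma voom adjusted p = 6.4e-05), from 5.44 ± 0.481 to 7.44 ± 0.547 reads per kb of exon per M (SD, n = 4 each). Its RPKM lay under the filter. *Smad2* had 0.111 ± 0.00357 and 0.126 ± 0.00301 RPKM (SD, n = 4 each) and a log2FC of 0.10, which missed the threshold in limma (adjusted p = 0.0546) and passed it on reads (0.19, limma voom adjusted p = 0.0104). Over all settings its adjusted p ran from 0.0104 to 0.146. *Smad4*, the partner both share, had a log2FC of -0.026 (limma adjusted p = 0.511), and over its settings from -0.041 to -0.0067.

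*Foxh1*, the gene of the main DNA-binding partner in Nodal signalling, had 3.95 ± 0.186 and 3.46 ± 0.301 RPKM (SD, n = 4 each) without overlap, a log2FC of -0.19. Its adjusted p was 0.0589 from limma and 0.0393 from limma voom, and over all settings it ran from 0.0279 to 0.137. *Drap1*, a corepressor of FOXH1, had a log2FC of 0.11 (limma adjusted p = 0.123), which was 0.069 without BAZ2Ar WT replicate 4. *Ep300*, a histone acetyltransferase recruited by SMAD complexes, had one of 0.16 (limma adjusted p = 0.0244). The adjusted p of *Ep300* was 0.0565 with the replicate block and above 0.05 in 4 of the 8 fits that left out a library. On reads alone, *Crebbp*, named after its value was seen, was higher (0.28, limma voom adjusted p = 8.1e-04).

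*Smad7*, an inhibitory SMAD that the pathway itself induces and that removes its receptors, fell from 0.720 ± 0.0344 to 0.459 ± 0.0259 RPKM (SD, n = 4 each). Its log2FC of -0.55 (SE 0.044, limma adjusted p = 1.1e-04) was the largest among the 21 tested genes, and it passed the threshold in all settings that tested it, with adjusted p from 1.2e-09 to 0.00212. *Dact2*, which promotes the breakdown of Nodal receptors, fell by 0.28 on the log2 scale (SE 0.068, limma adjusted p = 0.0152). *Ski*, the gene of a repressor related to SnoN, had a log2FC of 0.15 (limma adjusted p = 0.0319), in the direction of *Skil*, and was above 0.05 in 7 of the 8 fits that left out a library. *Usp9x*, which encodes a deubiquitinase of SMAD4, had a log2FC of -0.11 (limma adjusted p = 0.351), which ran from -0.18 without BAZ2Ar ΔTAM replicate 1 to -0.057 without replicate 2 of the same line. On reads alone, *Pmepa1* (0.48, adjusted p = 4.8e-05) and *Nedd4l* (0.40, adjusted p = 5.9e-05, both from limma voom), which encode inhibitors of receptor-activated SMAD proteins and are named after their values were seen, were higher.

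Of 9 embryonic target genes, which mark mesoderm, endoderm and the organiser in the embryo, 4 passed the filter. *Hhex*, of the anterior endoderm, was higher (0.254 ± 0.0177 and 0.320 ± 0.0235 RPKM, SD, n = 4 each). The log2FC was 0.25 (limma adjusted p = 0.00858, and 0.0479 with the replicate block). *Eomes* had a log2FC of -0.26 (limma adjusted p = 0.0359) on 40 to 71 reads per library, with overlapping ranges. Its adjusted p was 0.0942 with the replicate block and above 0.05 in 6 of the 8 fits that left out a library. The gene *T* (brachyury) had a log2FC of -0.16 (limma adjusted p = 0.135), which was -0.081 without BAZ2Ar ΔTAM replicate 1. *Foxa2* and *Sox17*, of the endoderm, had at most 10 reads in any library.

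**Figure D5:**
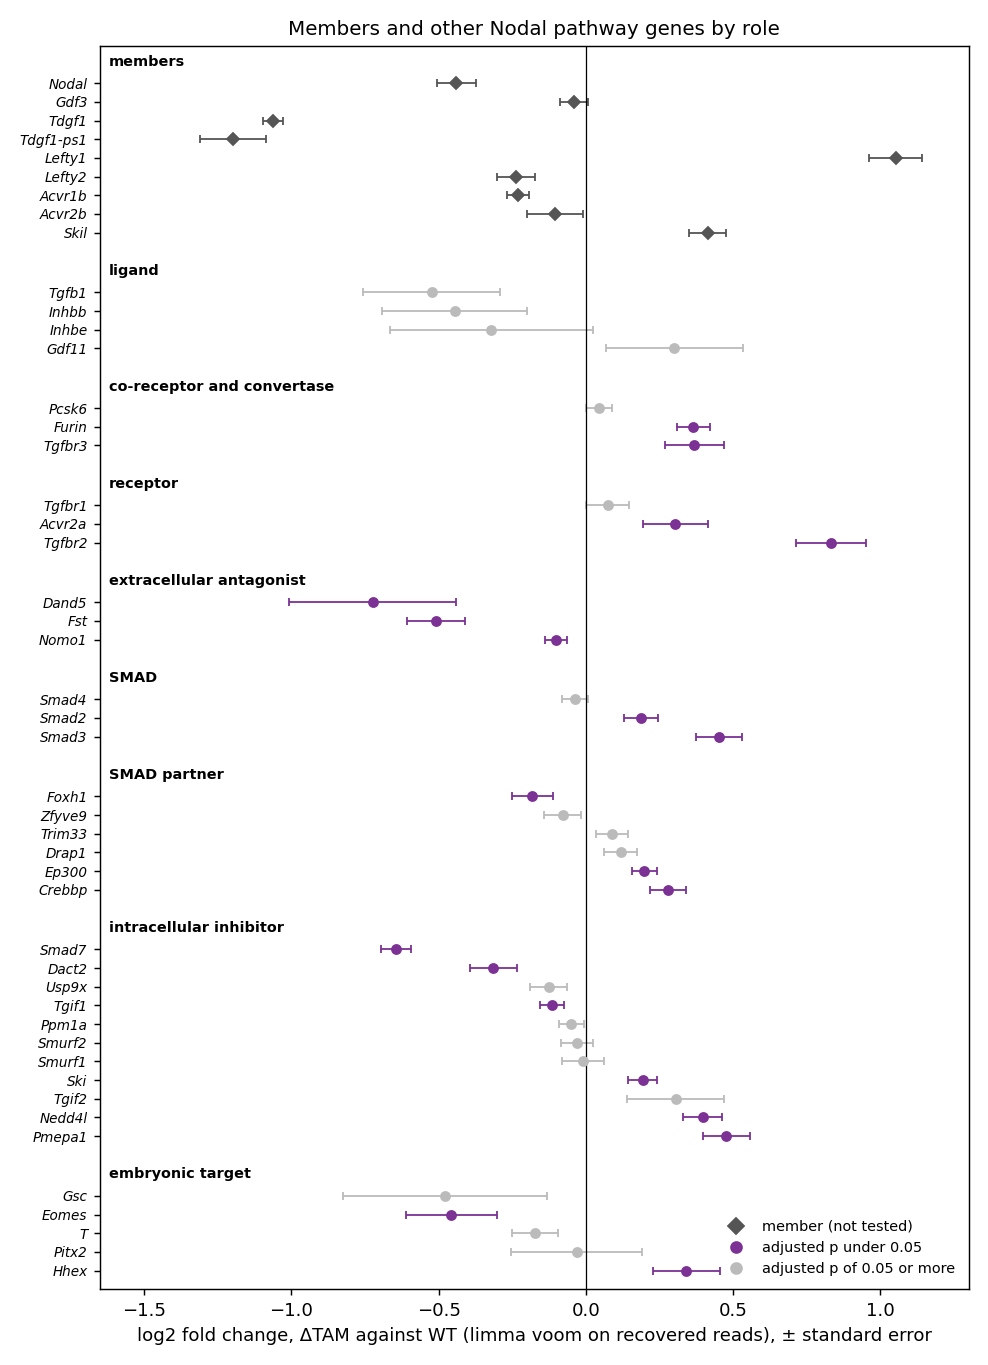
Log2 fold change of BAZ2Ar ΔTAM against BAZ2Ar WT on recovered reads from limma voom, with standard errors, for the 9 members (grey diamonds, not tested) and the 38 other pathway genes averaging 10 reads or more, by role. Purple points have an adjusted p under 0.05, with Smad7, Fst and Dand5 to the left of 0 and Tgfbr2, Pmepa1 and Smad3 to the right.

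The genes whose log2(RPKM + 0.1) followed a member most closely over the 8 libraries were sought among 2145 genes averaging 1 RPKM or more. The coefficients describe these libraries, which form 2 clusters, so that any gene with a like difference between the lines scores high. For *Tdgf1* they were *Mthfd2* (Pearson r = 0.999), *Cars* (0.997) and *Asns* (0.997), which encode a mitochondrial folate enzyme, a cysteinyl-tRNA synthetase and asparagine synthetase. These 3 were lower in BAZ2Ar ΔTAM, with log2FC of -0.62, -0.46 and -0.74 against -1.05 for *Tdgf1*. For *Lefty1* they were *Hspb1* (0.994), *Srrt* (0.993) and *Cndp2* (0.992), for *Nodal* *Nt5dc2* (0.986), *Commd3* (0.979) and *Gas5* (0.970), and for *Lefty2*, which varied most within BAZ2Ar WT, *Krtcap2* (0.961) and *Txn2* (0.931).

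Of 23 tested genes that lie within 100 kb of a member, limma called 7 higher and 3 lower at an adjusted p under 0.05, where 19.9% and 16.0% of all genes tested were. Beside *Tdgf1*, *Als2cl* (log2FC -0.29) and *Lrrc2* (-0.23) were lower with adjusted p of 0.00604 and 0.0123 from limma, by much less than *Tdgf1* (-1.05). Next to *Nodal*, *Pald1* was lower (-0.32, adjusted p = 5.2e-04) and *Eif4ebp2*, the nearer gene, had 0.039 (adjusted p = 0.431, both from limma). *Sde2*, on the side of *Lefty2* away from *Lefty1*, was higher (0.23, limma adjusted p = 0.0061). Near *Gdf3*, whose own ranges overlapped, *Dppa3* was higher (1.80, limma adjusted p = 9.0e-06). *Grasp* beside *Acvr1b* (0.35, limma adjusted p = 0.00404) and *Acaa1a* beside *Acvr2b* (0.23, limma adjusted p = 0.00116) were also higher. The neighbours described were chosen after their values were seen.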

How the data were processed

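PolyA-enriched RNA of 8 libraries was sequenced, 4 from ESC + F/H-BAZ2Ar WT and 4 from ESC + F/H-BAZ2Ar ΔTAM, and the groups come from the sample titles. The authors took out reads of ribosomal RNA, trimmed with Trimmomatic (0.36 in the processing notes), mapped to mm10 with STAR and deposited RPKM for each library. The annotation release, the use of strand and the handling of reads that fit several places are not given in the sources used here, so near-identical copies are uncertain. The exons of the 9 genes share no bases with those of other annotated genes.

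Multiplied by gene span, 99.5% of the deposited RPKM under 200 reads were whole multiples of a step per library (within 0.02), which gave the reads. Without molecular identifiers, a read count is not a count of molecules. Library totals implied by the steps were 43.8 M to 58.1 M. Repeated entries (386 of 51288) were set aside. Exon lengths came from GENCODE vM21, matched by symbol and overlap for 94.4% of genes, and reads per kilobase of exon were scaled to 1 M reads on genes.

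The members and lists were chosen with earlier results of these data known. Fold changes came from limma 3.58.1 in R 4.3.3 (lmFit, eBayes with trend) on log2(RPKM + 0.1) over 9002 genes averaging 0.1 RPKM or more, with Benjamini-Hochberg adjustment over all of them and a threshold of 0.05. The function voom of limma used the reads of 12660 genes averaging 10 or more. Named were the 9 members, the up to 3 most changed called genes and the most abundant gene per exon length of each role list, Smad2, Smad3, Smad4 and Foxh1, and the 3 genes most like Tdgf1, Nodal, Lefty1 and Lefty2. Of these, 1 gene is not reported here. The procedure was tested on simulated data. Alternatives were pseudocounts of 0.01 and 1, no filter or only genes averaging 1 RPKM or more, libraries scaled by median ratios or quantiles, eBayes without trend or robust, limma voom, a replicate block and each library left out in turn. Replicate numbers pair the libraries by the check on deviations from the group means, whose correlation between same-numbered libraries was 0.33, 0.14, 0.20 and 0.24, each higher than with any other number. The labels give no source for the pairing, and the main fit did not use it. Transcripts were aligned locally with Biopython 1.88 in Python 3.11.15 (match 1, mismatch -1, gap opening -3, extension -1), and figures were drawn with matplotlib 3.10.9.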

Additional observations from a re-analysis of the deposited data

Results flagged for a closer look

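In 56 groups of 4 libraries, 1 for each condition of the 9 members and of the 19 pathway genes named by the rule, a library far from the other 3 was looked for with Dixon's criterion, which chance meets in about 1 of 20 groups. It was met in 5. *Tdgf1-ps1* was at 6.72 RPKM in ESC + F/H-BAZ2Ar WT replicate 1, against 5.66 to 5.76 RPKM in the other 3 libraries. *Acvr2b* was at 0.124 RPKM in ESC + F/H-BAZ2Ar ΔTAM replicate 1, against 0.103 to 0.104 RPKM. *Ep300* was at 0.420 RPKM in ESC + F/H-BAZ2Ar WT replicate 3, against 0.455 to 0.462 RPKM. *Hhex* was at 0.285 RPKM in ESC + F/H-BAZ2Ar ΔTAM replicate 2, against 0.329 to 0.334 RPKM. The gene *T* was at 0.512 RPKM in ESC + F/H-BAZ2Ar ΔTAM replicate 1, against 0.651 to 0.670 RPKM.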

How the results depend on the processing

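The signs of the 9 members' fold changes held in all settings that included them. The settings of the filter and of eBayes cannot change these fold changes. A pseudocount of 1 RPKM shrank the log2 fold changes of *Nodal* to -0.22, *Tdgf1* to -0.97, *Tdgf1-ps1* to -0.95, *Lefty1* to 0.56, *Acvr1b* to -0.089 and *Skil* to 0.10. With 0.01 RPKM, *Acvr1b* had -0.23 and *Skil* 0.40, close to limma voom (-0.23 and 0.41). The genes called over the whole table, 1792 higher and 1436 lower, became 591 and 401 with only genes averaging 1 RPKM or more, which leaves fewer genes, and 2765 and 2763 with limma voom, which differs in both the test and the genes tested, and the cause was not tested. They ran from 1441 to 1715 and from 1137 to 1387 with each library left out. Of the other pathway genes, 4 higher became 8 with no filter, 0 with only genes averaging 1 RPKM or more (3 tested by limma, of which 0 were higher also at an unadjusted p under 0.05), 12 with limma voom and 2 to 3 with a library left out. The 6 lower became 2 with only genes averaging 1 RPKM or more, 3 with the replicate block, 8 with limma voom and 3 to 5 with a library left out. With the block, the calls of *Eomes*, *Ep300*, *Nomo1* and *Tgif1* (adjusted p = 0.0878 from limma; named after its value was seen) were lost. Those of *Smad7*, *Furin*, *Fst*, *Ski*, *Dact2* and *Hhex* were kept, with limma adjusted p of 0.00212, 0.00891, 0.0211, 0.0378, 0.0398 and 0.0479. The block leaves the fold changes of the members as they are. *Pcsk6* changed sign with quantile normalization (-0.0037, adjusted p = 0.955 from limma).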
